A study of Mus musculus with 6 samples.

Results

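The clustered histone genes are the 60 genes among 18417 named genes of the array whose symbol has the form of an H1, H2A, H2B, H3 or H4 cluster gene and which have a probe set of their own, that is, 1 annotated to no other symbol. They comprise 9 linker histone H1 genes, 14 H2A genes, 16 H2B genes, 8 H3 genes and 13 H4 genes. Genes entered by the form of their symbol, not by a difference between the groups. The family itself was chosen with earlier results of these data known. Of the 60 genes, 3 of the H1 form (H1-7, H1-8 and H1-10) and H4C16 are single genes outside the histone clusters, and 5 (H1-6, H1-7, H1-8, H2AC1 and H2BC1) are known mainly from the germ line. H4C14 and H4C15 carried the same value in every array, so that the 60 symbols hold 59 distinct measurements.

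RNA came from tumours grown from the human neuroblastoma cell line SK-N-BE(2), in which MYCN is amplified, after it was injected into the adrenal gland of NSG mice, which lack T, B and natural killer cells. The BL-8040 group holds 3 tumours of mice that received this CXCR4 inhibitor at 400 µg under the skin on 14 consecutive days, starting 7 days after cell injection. The control group holds 3 tumours of mice that carried the same cells in the same strain; what the control mice were given is not stated in the sources used here. The age of the mice is not given either. Each tumour was read on 1 Affymetrix Human Gene 1.0 ST array, and each value is a log2 signal. All tumour cells derive from 1 cell line, and the probes are human, so mouse RNA counts only where it hybridises to them.

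Histones are the proteins around which DNA is wound. H2A, H2B, H3 and H4 form the core of the nucleosome, and H1 binds the linker DNA between nucleosomes. Most histone genes lie in clusters and are transcribed mainly in S phase, when new DNA has to be packaged. Their mRNAs have no introns and, as a rule, end in a stem-loop bound by SLBP in place of a poly(A) tail. The factors NPAT and CASP8AP2 (FLASH) gather at the clusters and drive transcription and 3′ end formation. The coding sequences of 1 class are nearly alike, so a probe set can read transcripts of several neighbours, and a value listed under 1 symbol may hold signal from another gene of its class. Core histones are also highly conserved between human and mouse, and how much of the signal came from dividing mouse cells was not tested.

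Of the whole series, BL-8040 replicate 3 stood apart: on the first principal component, which held 37.2% of the variance, it lay at -22.7, and the other 5 arrays between -0.743 and 10.1. Of the neuroblastoma markers, 9 were measured, each at or above percentile 71.9 of the signals of all genes, and 8 of the 9 were lower after BL-8040. Their summed linear signal was 6486 to 8853 in BL-8040 tumours and 7820 to 8942 in controls, lowest in BL-8040 replicate 3. The markers of host cells gave summed signals of 409 to 462 in BL-8040 tumours and 399 to 421 in controls for 6 leukocyte genes, 99.2 to 109 and 103 to 108 for 5 endothelial genes, 2536 to 2940 and 2629 to 2754 for 5 fibroblast genes, 105 to 120 and 109.9 to 111 for 6 adrenal cortex genes, and 41.1 to 48.3 and 39.1 to 44.8 for 2 erythroid genes. None of these genes is at 0 on a log2 scale, and the human tumour cells can themselves express some of them. The part of host cells in the results below was not tested.

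The comparison asked which histone genes differed in tumours of mice treated with the CXCR4 inhibitor. The largest differences lay among H2B and H3 genes: H2BC7 stood 1.25-fold, H2BC6 1.18-fold, H3C7 1.19-fold and H3C12 1.18-fold higher in BL-8040 tumours than in controls. None of the 60 genes passed the test over all genes: in limma 0 had a Benjamini-Hochberg adjusted p under 0.05, as 0 of 18417 genes did (0%), and the lowest adjusted p among the members was 0.644. An unadjusted limma p under 0.05 was reached by 7 members, or 11.7%, all of them higher after BL-8040, where 2.64% of all genes were higher and 5.08% lower at this p. These 7 were H2AC16, H2BC4, H2BC6, H2BC7, H3C3, H3C7 and H3C12, and the H1 and H4 classes held 0 of them. The groups did not overlap in 5 members, or 8.33%, all higher, against 4.93% of all genes higher and 9.05% lower. With BL-8040 replicate 1 left out 1 member was higher and 3 were lower at this p. Without control replicate 2 the counts were 0 and 0, and without control replicate 3 they were 2 and 0. The number thus changed with the array left out. These fits also have fewer arrays, and the same counts over all genes were not made for them. In bulk tumours, fewer cells of a type and less RNA per cell cannot be told apart.

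**Figure D1:**
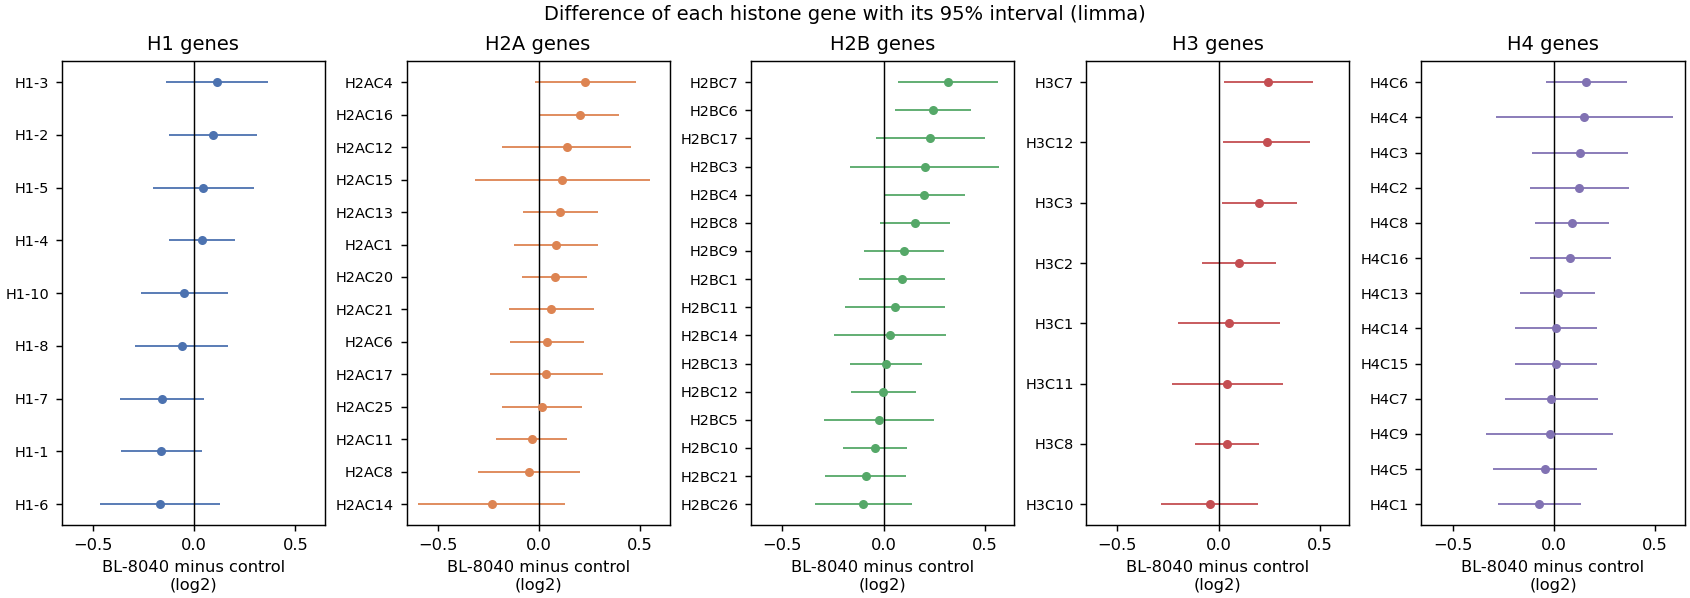
Difference between BL-8040 and control tumours (x axis, log2 units) for each of the 60 histone genes, in 1 panel per class. Points are limma estimates from 3 arrays against 3 and bars their 95% intervals; the intervals lie wholly above 0 in 7 genes of the H2A, H2B and H3 panels and wholly below 0 in none.

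Over all members the median difference was 0.05 log2 units, with 42 genes higher and 18 lower (70.0% higher). Over all named genes the median was -0.02, with 41.5% higher. The median was 0.07 among the 14 H2A genes (11 higher), 0.07 among the 16 H2B genes (11 higher), 0.08 among the 8 H3 genes (7 higher) and 0.02 among the 13 H4 genes (9 higher). Among the 9 H1 genes it was -0.05 (4 higher). These medians are small beside the 95% interval of a single gene, whose half-width was 0.197 log2 units for the median gene of the array. They also turned on 2 treated tumours: the median over all 60 members was -0.01 without BL-8040 replicate 1, with 27 of 60 higher, and 0.10 without BL-8040 replicate 3, with 49 of 60 higher. The direction of a gene did not depend on the array left out in 32 members, 24 of them higher and 8 lower, while 28 members changed sign at least once.

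**Figure D2:**
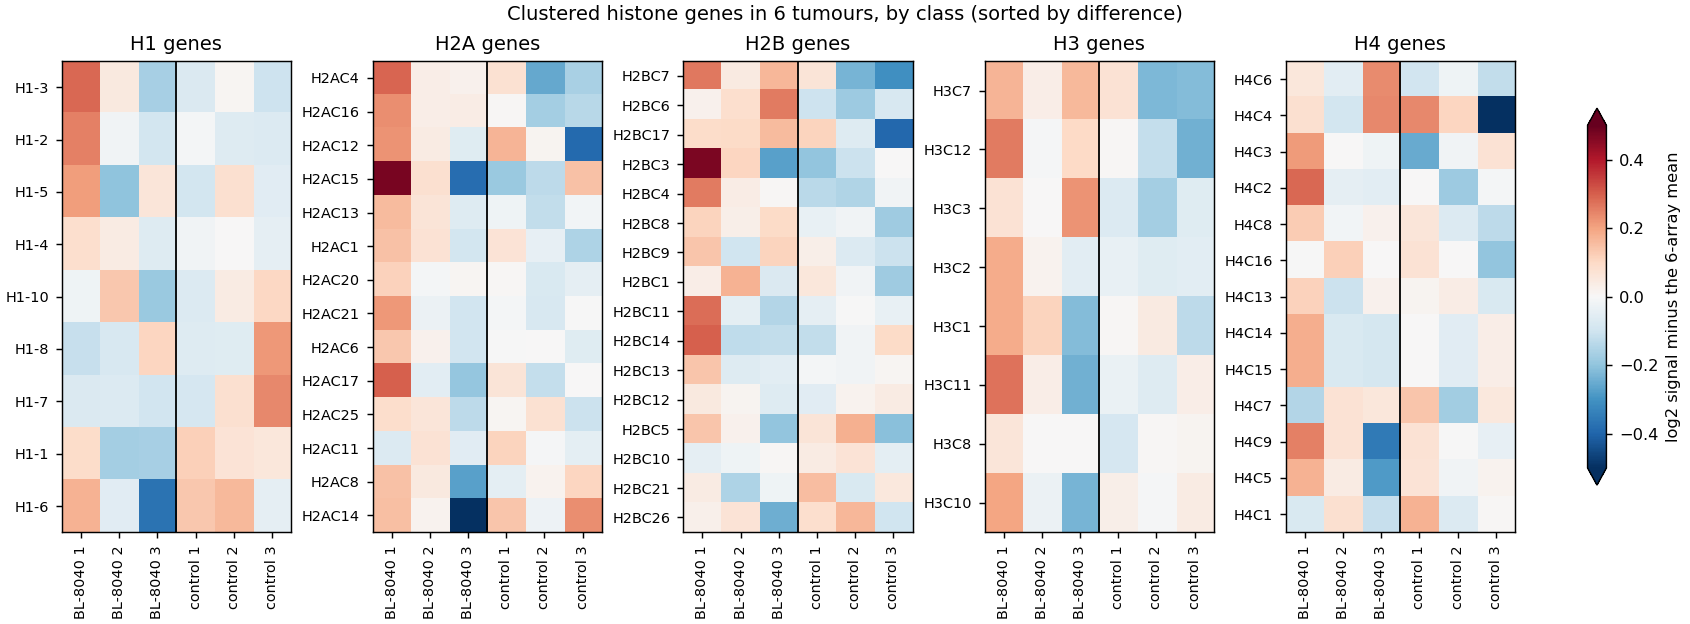
Log2 signal of each histone gene minus its mean over the 6 arrays (colour, scale limited to 0.5 to each side), with genes in rows by class, sorted by difference, and tumours in columns, the 3 BL-8040 tumours left of the 3 controls. The BL-8040 replicate 1 column is the reddest in most rows, and BL-8040 replicate 3 splits into high rows (H2BC7, H2BC6, H3C3, H4C6) and low ones (H2AC15, H2AC14, H4C9, H1-6).

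H2BC7 and H2BC6 encode core histone H2B and lie in the major cluster. The H2BC7 probe set (8117395) read 8.77, 8.55 and 8.67 log2 units in BL-8040 replicates 1, 2 and 3, against 8.57, 8.27 and 8.20 in control replicates 1, 2 and 3. All treated values but that of replicate 2 lay above every control, and control replicate 1 lay just above that value, so the groups overlapped. The difference was 0.32 ± 0.11 (SE), with a 95% interval from 0.07 to 0.56, an unadjusted limma p of 0.0171 and an exact permutation p of 0.2, where 0.1 is the smallest value that 3 arrays against 3 allow. The H2BC7 difference ranged from 0.24 without control replicate 3 to 0.43 without control replicate 1. H2BC6 was dim, at percentile 18.5 of all signals, with 3.92, 3.98 and 4.16 after BL-8040 and 3.79, 3.71 and 3.82 in controls. Its groups did not overlap, with a difference of 0.24 ± 0.08 (SE), a 95% interval from 0.06 to 0.43 and an exact permutation p of 0.1. Without BL-8040 replicate 3, which held the highest value, the H2BC6 difference was 0.18.

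Another 2 H2B genes had non-overlapping groups. H2BC4 read 6.33, 6.11 and 6.07 in BL-8040 tumours and 5.94, 5.92 and 6.05 in controls, a difference of 0.20 with an interval from 0.00 to 0.40, which was 0.12 without BL-8040 replicate 1. H2BC8 read 6.90, 6.82 and 6.88 after BL-8040 and 6.75, 6.77 and 6.61 in controls (difference 0.16, exact permutation p = 0.1); it was singled out after its values were seen. The groups overlapped in the 3 brightest H2B genes, H2BC14, H2BC7 and H2BC12, although H2BC7 had the largest difference of all members. H2BC14 had 10.77, 10.34 and 10.34 in treated tumours and 10.35, 10.45 and 10.57 in controls, so that BL-8040 replicate 1 was highest and the other treated values lowest. H2BC12, whose mRNA can also be polyadenylated, averaged 7.97 ± 0.06 in BL-8040 tumours and 7.97 ± 0.05 in controls (SD, n = 3 each), with an interval of the difference from -0.16 to 0.16. H2BC21 and H2BC26, the H2B members of the minor clusters, gave -0.09 and -0.10. Brighter probe sets that name H2BC21 together with other symbols gave 0.03 and 0.04. The remaining H2B genes lay between -0.04 (H2BC10) and 0.23 (H2BC17).

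H3C3, H3C7 and H3C12 were the H3 genes with the smallest p; all encode the replication-dependent core histone H3. H3C7 read 8.36, 8.22 and 8.35 in BL-8040 tumours and 8.26, 7.97 and 7.97 in controls. The pattern resembled that of H2BC7: control replicate 1 reached into the treated range and the other controls lay below it. H3C12 read 7.78, 7.51 and 7.62 after BL-8040 and 7.52, 7.40 and 7.28 in controls, with the same overlap through control replicate 1. The differences were 0.25 ± 0.10 for H3C7 and 0.24 ± 0.10 for H3C12 (SE, limma adjusted p = 0.644 each). H3C3 was dimmer, with 4.90, 4.83 and 5.05 in treated tumours and 4.76, 4.66 and 4.76 in controls. Its groups did not overlap, and the difference of 0.20 had an interval from 0.01 to 0.39. The H3C3 difference was 0.14 without BL-8040 replicate 3, and that of H3C12 was 0.16 without BL-8040 replicate 1.

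The 3 brightest H3 members moved differently between the treated tumours. H3C11 read 11.61, 11.38 and 11.10 after BL-8040 and 11.31, 11.28 and 11.37 in controls. Its highest and its lowest value both belonged to treated tumours, replicates 1 and 3. H3C2 had 10.54, 10.37 and 10.30 in BL-8040 tumours and 10.32, 10.29 and 10.30 in controls, a difference of 0.10 with an interval from -0.08 to 0.28. H3C1 had 8.43, 8.35 and 8.02 after BL-8040 and 8.25, 8.29 and 8.11 in controls, and its groups overlapped in the same way as those of H3C11. The difference was -0.04 in H3C10 and 0.04 in H3C8, which were not named by the rule.

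**Figure D3:**
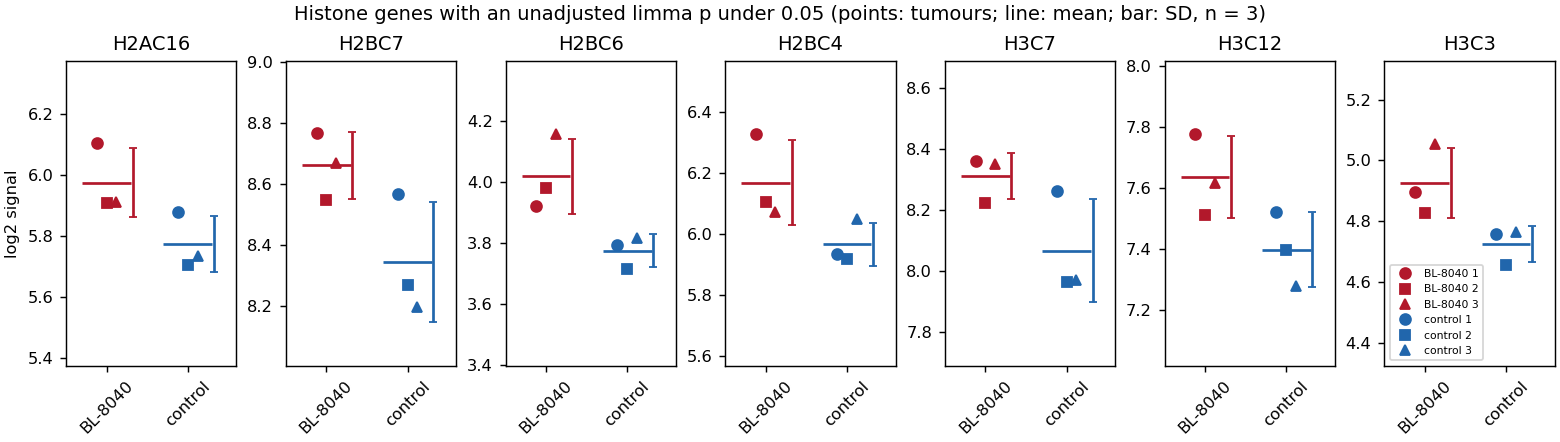
Log2 signal (y axis, 1 unit high in each panel) in the 3 BL-8040 and 3 control tumours for the 7 histone genes with an unadjusted limma p under 0.05. Symbols mark replicates, lines the means and bars the SD; the groups do not overlap in H2AC16, H2BC6, H2BC4 and H3C3, and control replicate 1 reaches into the treated range in H2BC7, H3C7 and H3C12.

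Among the H2A genes the tumours were ordered much alike. The mean correlation between pairs of H2A genes over the 6 arrays was 0.51, against 0.27 between pairs of all members and 0.02 between pairs of all named genes; these are descriptions, since the points share the same 6 arrays and near-identical sequences. In H3 it was 0.38, in H2B 0.20, in H1 0.18 and in H4 0.17. BL-8040 replicate 1 was the highest array in 12 of 14 H2A genes and replicate 3 the lowest in 7. H2AC15 shows the profile at its widest, with 9.18, 8.79 and 8.33 in BL-8040 tumours and 8.52, 8.58 and 8.85 in controls. Its difference of 0.11 turned to -0.09 without BL-8040 replicate 1 and was 0.33 without BL-8040 replicate 3. H2AC21 read 10.99, 10.75 and 10.68 after BL-8040 and 10.76, 10.69 and 10.77 in controls, and H2AC20 10.02, 9.89 and 9.91 against 9.91, 9.82 and 9.86. Both lie in a minor cluster, and in both the treated replicate 1 stood highest while another treated tumour lay within the control range.

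The H2A genes with the smallest p were H2AC16, H2AC4 and H2AC14. H2AC16 read 6.10, 5.91 and 5.91 in BL-8040 tumours and 5.88, 5.70 and 5.73 in controls. Its groups did not overlap, and the difference of 0.20 had an interval from 0.01 to 0.40. H2AC4 read 7.28, 7.02 and 7.01 after BL-8040 and 7.06, 6.73 and 6.82 in controls, a difference of 0.23 ± 0.11 (SE), with control replicate 1 inside the treated range. H2AC14 gave the lowest difference of all members, -0.23 ± 0.16, at 2.498, 2.37 and 1.83 in treated tumours and 2.49, 2.32 and 2.58 in controls. This probe set was at percentile 1.56 of all signals, among the dimmest of the array, and its low mean came from BL-8040 replicate 3. The other H2A genes lay between -0.05 (H2AC8) and 0.14 (H2AC12).

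In the H1 class, H1-2, H1-3, H1-4 and H1-5, the main linker histones of dividing somatic cells, differed by 0.04 to 0.11, and H1-1, H1-6, H1-7, H1-8 and H1-10 by -0.17 to -0.05. Of these 9 genes 5 changed sign when 1 array was left out. H1-4, the brightest member at percentile 99.97, read 12.44, 12.40 and 12.29 in BL-8040 tumours and 12.34, 12.36 and 12.31 in controls. The interval of its difference ran from -0.12 to 0.20. H1-2 read 8.52, 8.25 and 8.18 after BL-8040 and 8.26, 8.21 and 8.20 in controls, and H1-5 8.93, 8.52 and 8.79 against 8.63, 8.81 and 8.67. In H1-2 and H1-5 BL-8040 replicate 1 again held the highest value, and leaving it out gave differences of -0.01 and -0.05.

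Of the genes on the other side, H1-1, a linker histone gene of the major cluster, read 3.999, 3.74 and 3.74 in BL-8040 tumours and 4.03, 3.97 and 3.96 in controls. The testis linker histone H1-6 read 4.48, 4.25 and 3.94 after BL-8040 and 4.44, 4.47 and 4.26 in controls, and the testis linker histone H1-7 5.98, 5.98 and 5.96 against 5.97, 6.13 and 6.29. Differences were -0.16 for H1-1, -0.17 for H1-6 and -0.16 for H1-7, with intervals that reached above 0 and limma adjusted p of 0.663, 0.740 and 0.676. When the germ-line H1 genes and H1-10 were left out, the H1 median was 0.05 in place of -0.05.

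The H4 members, most of which encode the same protein, gave the narrowest range of differences, from -0.07 (H4C1) to 0.16 (H4C6). The shared value of H4C14 and H4C15 was 10.97, 10.71 and 10.69 in BL-8040 tumours and 10.79, 10.73 and 10.82 in controls, with an interval of the difference from -0.19 to 0.22. H4C3 read 9.66, 9.44 and 9.42 after BL-8040 and 9.19, 9.42 and 9.51 in controls, and H4C2 8.54, 8.21 and 8.20 against 8.25, 8.07 and 8.24. The groups overlapped in all of these, with BL-8040 replicate 1 highest in each. Dimmer probe sets annotated to both H4C14 and H4C15 ordered the tumours otherwise. They read 7.79, 7.96 and 7.46 in BL-8040 tumours and 7.68, 7.70 and 7.79 in controls, with BL-8040 replicate 2 highest. H4C6 read 5.09, 4.98 and 5.27 in treated tumours and 4.93, 5.01 and 4.91 in controls (difference 0.16, limma adjusted p = 0.665). H4C4 varied most of all members between arrays, with 8.04, 7.87 and 8.20 after BL-8040 and 8.20, 8.07 and 7.39 in controls, and was singled out for that after its values were seen.

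Across the members the 6 tumours did not share the extreme values evenly. BL-8040 replicate 1 had the highest value in 41 of 60 members (68.3%), against 12.7% of all named genes. BL-8040 replicate 3 had the lowest value in 25 members (41.7%), against 30.5% of all genes. After each gene was centred on its 6-array mean, the median of the members was 0.15, 0.02 and -0.06 in the BL-8040 tumours and 0.00, -0.02 and -0.05 in the controls. The treated tumours thus spanned a wider range than the controls and enclosed it. The H1, H2A, H2B, H3 and H4 medians were each highest in BL-8040 replicate 1, at 0.09, 0.15, 0.12, 0.18 and 0.13.

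**Figure D4:**
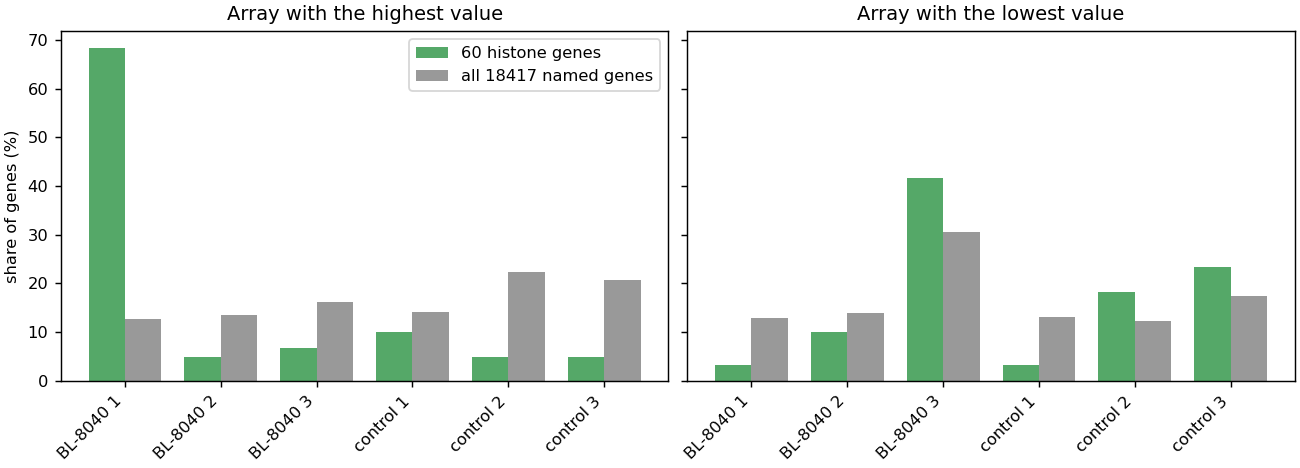
Share of genes (y axis, %) for which each tumour held the highest (left) or the lowest (right) of the 6 values, for the 60 histone genes and for all 18417 named genes. BL-8040 replicate 1 holds 68.3% of the highest histone values and 12.7% of the highest values of all genes.

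By position, the 49 members of the major cluster had a median difference of 0.09 (36 higher), and all 7 members at an unadjusted p under 0.05 were among them. The 7 members of the minor clusters had a median of 0.01, with 5 higher, and the 4 genes outside clusters one of -0.05, with 1 higher. The number of genes in the last groups is small, and whether the groups differ was not tested. The 5 germ-line genes had a median of -0.06. By signal, the 20 brightest, the 20 middle and the 20 dimmest members had medians of 0.06, 0.03 and 0.05, and of the 7 genes at an unadjusted p under 0.05 these bins held 2, 3 and 2. These groupings were made after the values were seen. Without BL-8040 replicate 1 the medians of the major and minor clusters were 0.01 and -0.08.

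Probe sets annotated to several genes lie outside the 60 members but read the same family. There were 20 that named at least 1 such gene, and 12 symbols, among them H4C11, H4C12 and the 3 genes H3C13, H3C14 and H3C15, occurred on these alone. The 2 probe sets shared by H4C11 and H4C12 both had treated values above all controls, as in 4.93% of all named genes. One read 9.14, 8.80 and 8.90 in BL-8040 tumours and 8.71, 8.65 and 8.72 in controls, and the other 8.76, 8.49 and 8.52 against 8.37, 8.35 and 8.40. Their differences were 0.25 ± 0.09 and 0.22 ± 0.09 (SE, limma adjusted p = 0.643 each). The unadjusted limma p were 0.0253 and 0.0346, and neither probe set is counted among the H4 members above. The 4 probe sets of H3C13, H3C14 and H3C15 differed by 0.10 to 0.11 and held a pair with identical values, and that of H3C4 and H2AC7 differed by 0.00. The share of each gene in such a signal was not measured.

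Genes that make histone mRNA or handle histone proteins were described beside the members. Of 28 measured genes of histone transcription and 3′ processing, 17 were higher and 11 lower (median difference 0.03), and 2 had an unadjusted limma p under 0.05, against 7.72% of all genes in either direction. CASP8AP2, the FLASH protein of the histone locus body, read 6.42, 6.50 and 6.46 in BL-8040 tumours and 6.37, 6.31 and 6.04 in controls, without overlap, as in 14.0% of all genes. CCNE2, a cyclin that activates CDK2, stood 1.16-fold higher, and SNRPF, a core snRNP protein, 1.18-fold. SYMPK, the scaffold of the cleavage complex, read 7.52, 7.52 and 7.47 after BL-8040 and 7.71, 7.56 and 7.70 in controls. NPAT and SLBP differed by -0.0045 ± 0.09 and 0.04 ± 0.10 (SE) and were picked for their role. Limma adjusted p was 0.644 for CASP8AP2 and CCNE2, 0.647 for SNRPF and 0.649 for SYMPK.

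Of 30 histone chaperone and nucleosome assembly genes, 18 were higher and 12 lower (median 0.04), with 1 at an unadjusted limma p under 0.05, against 7.72% of all genes in either direction. This was ASF1A, which passes H3-H4 dimers to the assembly factors, at 7.42, 7.32 and 7.40 in BL-8040 tumours and 7.11, 7.23 and 7.11 in controls. Its groups did not overlap, as in 14.0% of all genes, and the difference of 0.23 ± 0.07 (SE) had a limma adjusted p of 0.644. CABIN1, a subunit of the HIRA complex that deposits H3.3, stood at 0.894 times the control level, MMS22L, a partner of the TONSL histone reader, 1.15-fold higher and HAT1, which acetylates new H4, 1.11-fold higher. Of 11 measured histone variant genes that are not among the members, 7 were higher (median 0.02) and 0 had an unadjusted limma p under 0.05. H2AZ1, the H2A.Z gene, read 9.52, 9.42 and 9.47 after BL-8040 and 9.39, 9.30 and 9.24 in controls, and H2AJ stood at 0.893 times the control level. H3-3B, which encodes H3.3, stood 1.08-fold and H3-5, a retrotransposed H3.3 copy whose probes may read H3.3 transcripts, 1.11-fold higher.

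The S-phase list gave the context in which cluster genes are transcribed. Of its 25 measured genes 21 were higher (median 0.11), against 41.5% of all genes. At an unadjusted limma p under 0.05 there were 4 higher genes, where 2.64% of all genes were higher at this p. These were RRM2, CLSPN, FEN1 and CCNE2, each with a limma adjusted p of 0.644. The median of the list, relative to each gene's mean, was 0.07, 0.05 and 0.00 in the BL-8040 tumours and 0.03, -0.05 and -0.13 in the controls. BL-8040 replicate 1 was highest here too, and control replicate 3 was lowest. Over all members the lowest median was that of BL-8040 replicate 3, as it was in the H1, H2A and H4 classes. The H2B median was lowest in control replicate 3 (-0.07) and the H3 median in control replicate 2 (-0.06). Summed linear signals of the list were 8217 to 8703 in BL-8040 tumours and 7624 to 8439 in controls. The part of S-phase content in the histone values was not tested.

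**Figure D5:**
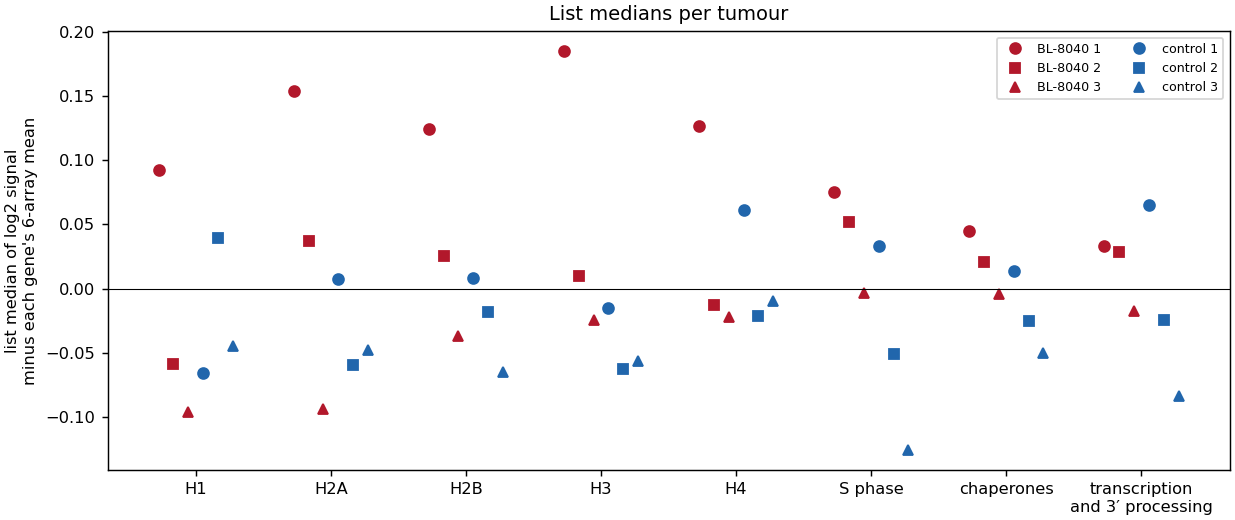
Median over each list (y axis, log2 signal minus each gene's 6-array mean) in the 3 BL-8040 and 3 control tumours, for the 5 histone classes and the S-phase, chaperone, and transcription and 3′ processing lists. BL-8040 replicate 1 is the highest point in each histone class, from 0.09 in H1 to 0.18 in H3, and in the S-phase and chaperone lists.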

How the data were processed

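The authors deposited 1 table of log2 values, 1 column per array, for 33297 probe sets. The log2 scale was read from the values (1.08 to 13.2). Per the submitters' processing notes Partek 6.6 was used; the sources used here do not say how background was corrected or how arrays were normalized and summarized. RNA was extracted with Trizol and 200 ng was labelled, per the labels' protocols. In the platform annotation, 19460 probe sets had 1 symbol and 1754 had several. The brightest probe set with 1 symbol (6-array mean) stood for each gene, leaving 18417 genes. Every histone member had 1 such probe set, and some members were also named on probe sets with several symbols. No scanner files were used, so no detection call was available, and brightness ranks of probe sets describe signal, not relative amounts of RNA between genes. No human sequence was available, so none is printed.

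BL-8040 and control arrays, 3 each, were compared with limma 3.58.1 (lmFit, eBayes) in R 4.3.3, two-sided, with Benjamini-Hochberg adjustment over all genes; folds are antilogs of BL-8040 minus control. The test was checked on simulated data in which genes varied independently. The check required recovery only for added differences larger than any seen among the histone members. That replicates come from separate mice is taken from the design text. Equal replicate numbers are not said to pair the mice, and the main fit used no pairing. Deviations of same-numbered arrays from their group means correlated at -0.04, 0.02 and 0.08. With 3 arrays per group these values cannot show whether mice were paired.

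Members and lists were chosen with earlier results of these data known. Per class, the 3 brightest members and the 3 with the smallest p were named, with H2BC7 and H2BC6, and up to 4 genes per related list. Alternatives were normalization, dim-gene filters, averaging probe sets, shared probe sets, moderation, array weights, a replicate block, threshold, membership and leaving out each array.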

Additional observations from a re-analysis of the deposited data

How the results depend on the processing

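No gene of the array and no histone member was called in limma under any alternative run, including an adjusted p under 0.1. Normalization, moderation, array weights, the mean of probe sets, the added shared probe sets and the dim-gene filters gave 5 to 9 members higher at an unadjusted p under 0.05 and 0 lower; with 1 array left out the counts were 0 to 7 higher and 0 to 3 lower. With the replicate number as a block 7 members were higher at this p and the median difference was 0.05, so the block moved no call. The same counts over all genes were not made for any of these alternatives. The member counts can therefore not be set beside the 2.64% and 5.08% of all genes in the main fit. Scaling moved the median of all members to 0.04 (quantile) or 0.07 (median centring). With 1 array left out the median was -0.014 to 0.099 for all members, -0.095 to 0.027 for H1, -0.014 to 0.13 for H2A, -0.0028 to 0.12 for H2B, 0.028 to 0.16 for H3 and 0.010 to 0.082 for H4. The H1 median turned to 0.043 under both dim-gene filters and to 0.045 without the germ-line H1 genes and H1-10.

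In the related lists, the genes at an unadjusted limma p under 0.05 numbered 0 with quantile normalization in transcription and 3′ processing, 2 (quantile, centring, trend with robust moderation) or 3 (both filters, array weights) among chaperones, and 1 among variants with centring, trend with robust moderation, array weights and both filters. With 1 array left out they numbered 0 to 3, 1 to 4 and 0 to 1, and 2 to 6 in the S-phase list. The list medians then ranged from -0.032 to 0.065 (transcription and 3′ processing), 0.019 to 0.061 (chaperones), -0.0059 to 0.064 (variants) and 0.049 to 0.14 (S phase). In the S-phase list the genes at this p numbered 3 with quantile normalization or the mean of probe sets and 4 with both filters. They numbered 5 with trend and robust moderation and 6 with centring or array weights. The share of all genes at this p was not computed under these settings.

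Of 43 named genes, 10 turned direction under some alternative. With 1 array left out, the differences ranged from -0.0094 (without BL-8040 replicate 1) to 0.16 for H1-2, -0.048 to 0.16 for H1-5, -0.093 to 0.33 for H2AC15, -0.031 to 0.12 for H2AC21, -0.11 to 0.10 for H2BC14, -0.027 to 0.17 for H3C1, -0.082 to 0.17 for H3C11, -0.076 to 0.060 for H4C14 and H4C15, each lowest without BL-8040 replicate 1 and highest without BL-8040 replicate 3 (H1-5 and H2BC14 without BL-8040 replicate 2), and -0.030 to 0.030 for H2BC12. H2BC12 was at 0.020 with median centring or array weights, and H4C14 and H4C15 at -0.0094 with quantile normalization. The cause was not tested. The number of arrays limits the precision, and dim members such as H2AC14, H2BC6 and H2BC10 have no detection call.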
